A study of Rattus norvegicus with 6 samples.

Results

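Integrins are cell surface receptors that bind the extracellular matrix, and 10 integrin subunit genes of rat chondrocytes were followed here, out of 18420 genes in the deposited table. They were taken from the table by gene symbol, and the set was drawn up with earlier results of these data known: the beta subunits Itgb1, Itgb3 and Itgb5, and the alpha subunits Itga1, Itga2, Itga3, Itga5, Itga10, Itga11 and Itgav. All 10 passed the filter on low counts. The cells were primary articular chondrocytes from male wild-type Sprague-Dawley rats, at the third passage, and chondrocytes in culture are known to lose cartilage genes with passage. In the TNF-α group (n = 3), cells received 10 ng/mL TNF-α, an inflammatory cytokine, for 6 h. In the TNF-α+NFL group (n = 3), the same 6 h of TNF-α was followed by 24 h with Nanofat lysate (NFL), a freeze–thaw lysate of cells isolated by collagenase from rat abdominal fat. All 6 libraries therefore come from TNF-α-treated cells, and untreated cells were not analysed here. The labels give 6 h and 30 h as the times of the groups, so NFL and the time of harvest cannot be told apart. The study calls its replicates biological and independent, but neither it nor the labels say whether they came from separate animals or cultures, so p-values measure only the spread between these samples, which may be technical.

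An integrin is a dimer of an alpha and a beta subunit. The extracellular domains hold collagen, fibronectin, laminin or vitronectin, and the short tails inside the cell recruit talin, kindlin and vinculin, which join the receptor to actin. Itgb1 is the common partner: it pairs with Itga1, Itga2, Itga10 and Itga11, the collagen receptors, with Itga5, a fibronectin receptor, with Itga3, a laminin receptor, and with Itgav. Itgav also pairs with Itgb3 and Itgb5 in receptors for the Arg-Gly-Asp sequence of vitronectin and other proteins, and some of these release TGF-β from its latent form. In cartilage, integrins anchor chondrocytes to their matrix, and Itga10 with Itgb1 is known as a receptor for type II collagen.

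The promoters of the 3 subunits whose replicates did not overlap between groups are shown first, because their values are the ones on which the comparison turned. Each is the 250 bases before the start of the gene in RefSeq, build GRCr8, on the + strand. Capitals mark matches, on either strand, to a GC box (GGGCGG), a Smad box (CAGAC) or a TEAD motif (GGAATG). No match overlapped another.
Itgb1, chr19:73602027-73602276: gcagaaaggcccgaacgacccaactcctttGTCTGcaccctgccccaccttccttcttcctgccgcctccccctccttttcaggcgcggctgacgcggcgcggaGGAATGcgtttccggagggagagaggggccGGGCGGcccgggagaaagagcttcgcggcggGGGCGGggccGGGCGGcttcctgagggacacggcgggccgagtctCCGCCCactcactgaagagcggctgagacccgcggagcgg
Itga11, chr8:72041182-72041431: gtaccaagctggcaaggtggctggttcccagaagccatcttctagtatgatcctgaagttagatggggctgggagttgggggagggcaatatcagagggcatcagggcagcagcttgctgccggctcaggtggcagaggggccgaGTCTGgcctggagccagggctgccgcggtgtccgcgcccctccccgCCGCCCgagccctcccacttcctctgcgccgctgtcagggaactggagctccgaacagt
Itga10, chr2:186871461-186871710: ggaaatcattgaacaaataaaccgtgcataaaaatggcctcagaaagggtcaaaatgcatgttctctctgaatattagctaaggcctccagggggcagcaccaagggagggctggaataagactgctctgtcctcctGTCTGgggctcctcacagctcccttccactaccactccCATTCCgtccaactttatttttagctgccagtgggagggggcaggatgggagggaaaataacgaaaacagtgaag

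Itgb1 had the richest of these promoters in G and C, at 71.2%, against 65.2% for Itga11 and 49.6% for Itga10. The median over all 27457 promoters of the table was 52.0%. The Itgb1 window held 4 GC boxes, the nearest 40 bases before the start, and the Itga11 window held 1, at 59 bases. Itga10 had no GC box there. Each of the 3 windows held 1 Smad box, at 220 bases before the start in Itgb1, 105 in Itga11 and 113 in Itga10. Itgb1 and Itga10 held a TEAD motif, at 146 and 75 bases. Promoters were found for 9 of the 10 subunits, all but Itgb3. Of these, 6 held a GC box, which 32.4% of all promoters hold, 8 held a Smad box (42.8% of all) and 3 a TEAD motif (11.8% of all). No window of the 9 held an AP-1 site (TGANTCA, 6.36% of all), a TATA box (TATAAA, 13.1% of all) or a CArG box (1.5% of all), which says only that these letters are not in these windows. A match is a description of the letters and not a binding site.

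The 6 libraries held between 19344893 and 19725135 estimated counts. Fractional counts made up 27.28% to 27.96% of each library's genes, which arise where reads are shared between genes or transcripts of like sequence. Among the subunits, Itgb1, Itga2, Itgb5 and Itga11 had fractional counts and the other 6 had whole ones, so the share of reads assigned to these 4 genes is an estimate. The cells were checked against their label. The chondrocyte genes Col2a1, Acan and Sox9 had 3.95, 2.61 and 2.25 FPKM in the TNF-α group (fragments scaled to transcript length and to the reads of the library), whereas Col11a1, the highest of the chondrocyte list, had 215 FPKM and Ucma 21.9 FPKM. Of the fibroblast-type genes, Col1a1 had 624 FPKM, S100a4, the highest, 1870.5 FPKM, and Dcn 35.8 FPKM. The leukocyte gene Ptprc and the endothelial gene Pecam1 were near 0, at 0.0267 and 0.0700 FPKM in the TNF-α group, and Cd14, which other cells also express, was at 34.7 FPKM. Every direction follows the deposited group names. Col2a1 was at 4.63 FPKM in the libraries named TNF-α+NFL, above 3.95 FPKM in the others with no overlap (adjusted p = 0.217 from edgeR). Of all genes tested, 8.66% were higher with no overlap. Acan and Sox9 overlapped between the groups (adjusted p = 0.802 and 0.923 from edgeR). Fold changes published with the study run opposite to the deposited names, and the deposited values alone cannot settle which group is which.

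Itgb1 was by far the most abundant subunit on the scale of FPKM, which allows for transcript length. Its level was 677 ± 27.8 FPKM in the TNF-α group and 781 ± 12.6 FPKM in the TNF-α+NFL group (SD, n = 3), rank 106 and rank 78 among all genes. Itgb5 followed, at 134 ± 3.37 and 138 ± 3.94 FPKM, and Itgav came after it, at 104 ± 6.49 and 105 ± 1.60 FPKM. Itga1, at 76.9 ± 19.8 and 78.9 ± 4.57 FPKM, and Itga5, at 74.6 ± 3.49 and 71.1 ± 1.86 FPKM, came next. These most abundant subunits thus include the common beta subunit, the Arg-Gly-Asp receptor Itgav with its partner Itgb5, a collagen receptor and a fibronectin receptor. Itga11 had 38.6 ± 2.47 and 46.8 ± 1.79 FPKM, and Itga3 15.0 ± 1.04 and 15.7 ± 0.867 FPKM. The lowest levels were those of Itgb3, at 5.27 ± 0.278 and 5.64 ± 0.398 FPKM, Itga2, at 3.04 ± 0.252 and 2.71 ± 0.0755 FPKM, and Itga10, at 0.227 ± 0.00577 and 0.320 ± 0.010 FPKM. The order of the 10 levels was the same in both groups. Within the TNF-α group, the ranges of Itgav and Itga1 overlapped, as did those of Itga1 and Itga5. The other neighbours in the order lay apart in that group, and in the TNF-α+NFL group all neighbours lay apart.

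**Figure D1:**
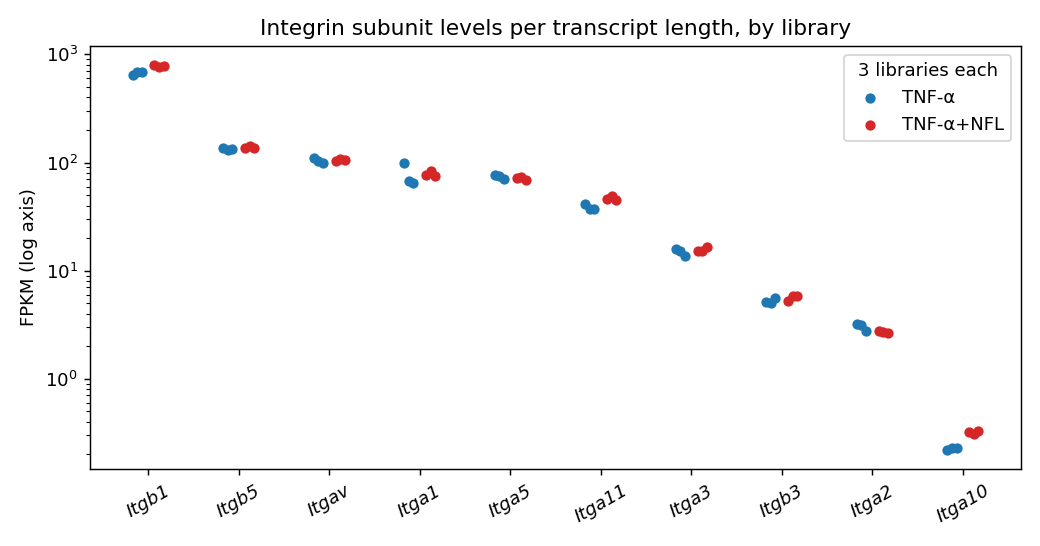
Level of each integrin subunit in FPKM (log axis), 1 point per library, with the 3 TNF-α libraries in blue and the 3 TNF-α+NFL libraries in red. The order is the same in both groups, from Itgb1 at 677 and 781 FPKM to Itga10 at 0.227 and 0.320 FPKM.

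The comparison of the groups asked whether NFL after TNF-α changed the RNA of the integrin subunits. Itgb1 and Itga11 rose, by 15.2% and 20.8%, past an adjusted p of 0.05 in the edgeR quasi-likelihood test over all 13250 genes. None of the 10 fell. Among all genes tested, 0.408% were called higher and 0.204% lower at this threshold. An unadjusted p under 0.05 was found for 4 of the 10 subunits (Itgb1, Itga11, Itga10 and Itga2), against 11.1% of all genes in either direction. In Itgb1, Itga11 and Itga10 all 3 TNF-α+NFL libraries lay above all 3 TNF-α libraries, which held for 8.66% of all genes. In no subunit did they all lie below, which held for 8.17% of all genes. The log2 fold change was positive in 8 subunits and negative in 2, with a median of 0.055, beside -0.0035 over all genes. In a bulk sample, a change in the share of cells of a type and a change in the RNA per cell cannot be told apart.

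**Figure D2:**
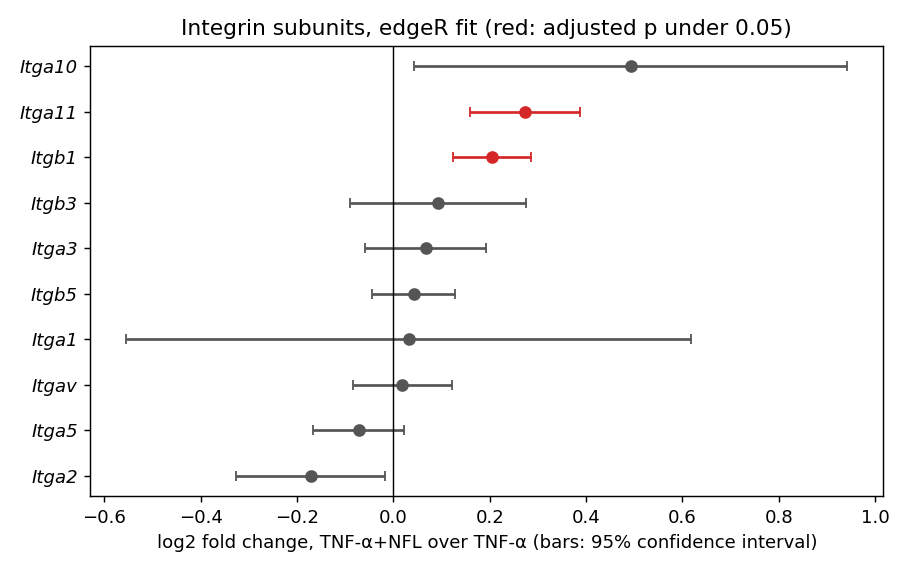
Log2 fold change of each integrin subunit, TNF-α+NFL over TNF-α, from the edgeR fit, with bars for the 95% confidence interval and red for an adjusted p under 0.05. The intervals of Itgb1 (0.12 to 0.29) and Itga11 (0.16 to 0.39) lie above 0, and the widest ones are those of Itga1 (-0.55 to 0.62) and Itga10 (0.043 to 0.94).

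Of the beta subunits, Itgb1 changed. Its normalized counts (CPM, counts scaled to the normalized size of the library) were 2409, 2548 and 2551 in TNF-α replicates 1, 2 and 3, and 2929.8, 2854 and 2869.9 in TNF-α+NFL replicates 1, 2 and 3. The lowest TNF-α+NFL library thus exceeded the highest TNF-α library by more than either group spread. The means were 2503 ± 81.0 and 2884 ± 40.2 CPM (SD, n = 3), a log2 fold change of 0.20 with a standard error of 0.037 (edgeR, adjusted p = 0.028), rank 49 of all genes by p. The exact permutation p was 0.10 (two-sided), the smallest that 3 samples against 3 allow. When 1 library was left out in turn, Itgb1 kept its direction, with log2 fold changes from 0.18 to 0.22. It passed the threshold without TNF-α replicate 1 (adjusted p = 0.000251 from edgeR) and missed it in the other 5 fits, with adjusted p from 0.0828 to 0.265.

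Itgb5 and Itgb3, which pair with Itgav, did not pass the test. Itgb5 ran from 482 to 515 CPM in the TNF-α group and from 503 to 531 CPM in the TNF-α+NFL group, and the ranges overlapped. Its log2 fold change was 0.042, with a 95% interval from -0.044 to 0.13 (adjusted p = 0.768 from edgeR). Itgb3 ran from 10.9 to 12.0 CPM and from 11.1 to 12.7 CPM, again with overlap. Its log2 fold change was 0.093 (interval -0.089 to 0.28, adjusted p = 0.756 from edgeR). Summed over the 3 beta subunits, the level was 816 ± 25.2 FPKM in the TNF-α group and 925 ± 10.7 FPKM in the TNF-α+NFL group (SD, n = 3; exact permutation p = 0.10, two-sided). Itgb1 made up 82.9% and 84.4% of that sum.

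**Figure D3:**
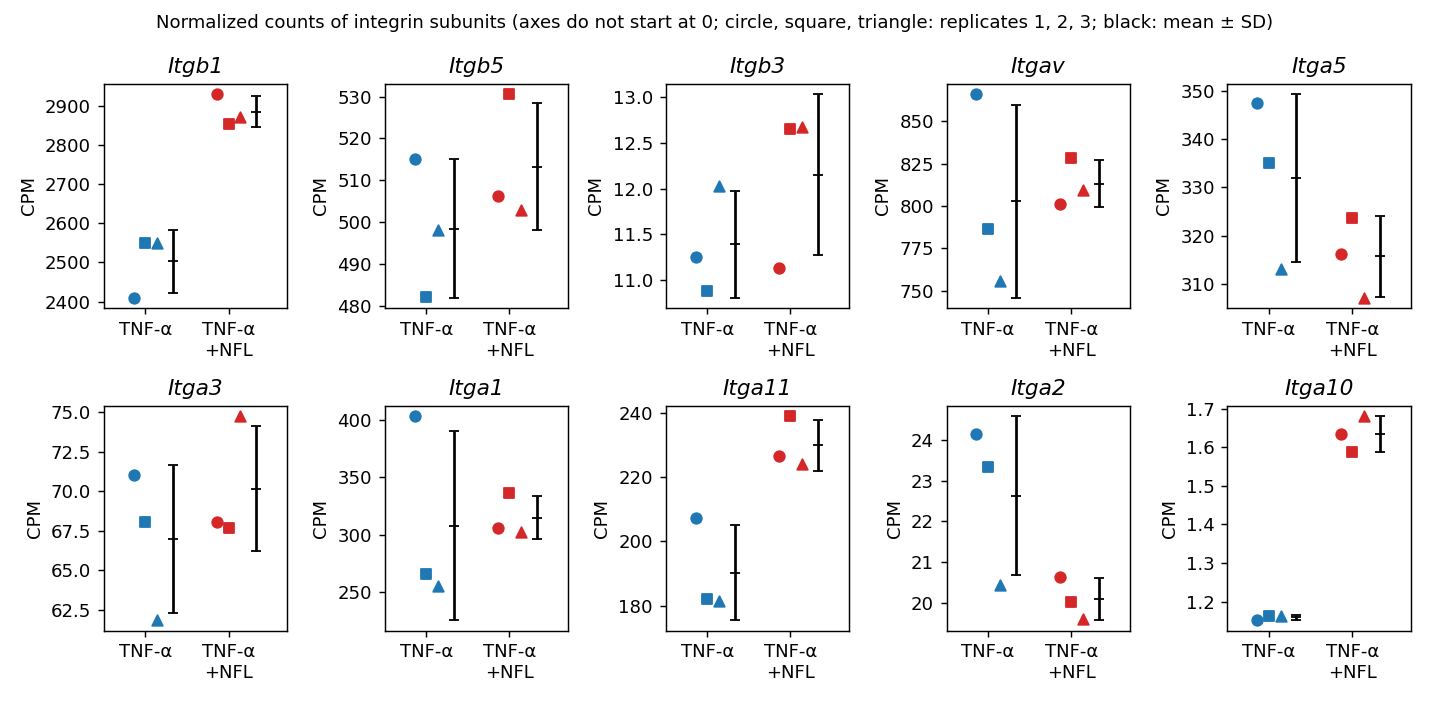
Normalized counts (CPM) of each integrin subunit in each library, with circles, squares and triangles for replicates 1, 2 and 3, black marks for the mean ± SD (n = 3), and axes that do not start at 0. Itgb1, Itga11 and Itga10 show no overlap between the groups, and Itga1 shows TNF-α replicate 1 at 403 CPM beside 266 and 256 CPM.

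Of the 4 collagen-binding alpha subunits, Itga11, a receptor for fibrillar collagens, rose. It had 207, 182 and 181 CPM in TNF-α replicates 1, 2 and 3, and 227, 239 and 224 CPM in TNF-α+NFL replicates 1, 2 and 3. The groups did not overlap, and TNF-α replicate 1 lay nearest to the TNF-α+NFL libraries. The means were 190 ± 14.8 and 229.9 ± 7.96 CPM (SD, n = 3), a log2 fold change of 0.27 with a standard error of 0.053 (edgeR, adjusted p = 0.037), rank 70 of all genes by p. The exact permutation p was again 0.10 (two-sided). With 1 library left out in turn, the log2 fold change stayed between 0.24 and 0.34. Itga11 passed the threshold without TNF-α replicate 1 (adjusted p = 1.04e-05 from edgeR) and missed it in the other 5 fits, with adjusted p from 0.104 to 0.276. Neither Itgb1 nor Itga11 passed in limma on log2(FPKM + 1), with adjusted p of 0.197 and 0.169, or in limma-voom without its robust option, with 0.0586 and 0.106.

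Itga10, the subunit known from type II collagen binding, had the largest fold change of the 10 and the fewest reads. Its estimated counts were 22, 23 and 23 in the TNF-α group and 32, 31 and 33 in the TNF-α+NFL group. Those groups did not overlap, and within each group the counts lay closer together than counting error gives on average: their SD was 0.577 beside a counting SD of 4.76 in the TNF-α group, and 1.00 beside 5.66 in the TNF-α+NFL group. The means were 1.16 ± 0.00688 and 1.63 ± 0.0462 CPM (SD, n = 3). The log2 fold change of 0.49 had a 95% interval from 0.043 to 0.94 and did not pass after adjustment (adjusted p = 0.395 from edgeR). The exact permutation p was 0.10 (two-sided).

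Itga1, the most abundant collagen-binding subunit, showed no difference that could be told from the spread in its TNF-α libraries. It had 403, 266 and 256 CPM in TNF-α replicates 1, 2 and 3, and 306, 336 and 302 CPM in TNF-α+NFL replicates 1, 2 and 3. TNF-α replicate 1 was the highest of all 6 libraries and replicates 2 and 3 the lowest. The coefficient of variation was 26.7% in the TNF-α group and 5.90% in the TNF-α+NFL libraries. With all libraries the log2 fold change came to 0.032 (95% interval -0.55 to 0.62, adjusted p = 0.978 from edgeR). Without TNF-α replicate 1 it was 0.27 (adjusted p = 0.00153 from edgeR), and without TNF-α replicate 2 or 3 it was -0.061 or -0.084, so this value rests on single libraries.

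Itga2, which binds type I collagen, had 24.1, 23.3 and 20.4 CPM in the TNF-α group and 20.6, 20.0 and 19.6 CPM in the TNF-α+NFL libraries. TNF-α replicate 3 lay among those, and the other 2 TNF-α libraries lay above them. The log2 fold change was -0.17 (95% interval -0.33 to -0.018) and did not pass after adjustment (adjusted p = 0.385 from edgeR). The exact permutation p was 0.2 (two-sided). Of the 4 collagen-binding subunits, 1 passed the test, 3 log2 fold changes were positive and 1 was negative. Their summed level was 119 ± 22.4 FPKM in the TNF-α group and 129 ± 6.35 FPKM in the TNF-α+NFL group (SD, n = 3; exact permutation p = 0.5, two-sided). TNF-α replicate 1, at 145 FPKM, lay above all other libraries, and the other TNF-α libraries, at 107 and 104 FPKM, below all 3 TNF-α+NFL libraries. Itga11 made up 28.7%, 34.6% and 35.7% of that sum in the TNF-α libraries and 36.6%, 35.9% and 36.6% in the TNF-α+NFL libraries (exact permutation p = 0.10, two-sided).

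The alpha subunits for fibronectin, laminin and Arg-Gly-Asp ligands did not pass the test. Itga5, the fibronectin receptor, ran from 313 to 348 CPM in the TNF-α group and from 307 to 324 CPM in the TNF-α+NFL group (log2 difference -0.072, 95% interval -0.17 to 0.023, adjusted p = 0.602 from edgeR). Itga3, the laminin receptor, ran from 61.8 to 71.0 CPM and from 67.7 to 74.7 CPM (0.067, interval -0.058 to 0.19, adjusted p = 0.743 from edgeR). Itgav ran from 756 to 866 CPM and from 801 to 828 CPM (0.018, interval -0.084 to 0.12, adjusted p = 0.938 from edgeR), and without TNF-α replicate 3 its sign turned to -0.021. In each of these 3 subunits the groups overlapped. The intervals leave room for small changes in either direction.

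Among the 10 subunits, TNF-α replicate 1 differed most from the other TNF-α libraries in Itga1, at 1.55 times their mean CPM. It was at 1.14 times that mean in Itga11 and 1.12 times in Itgav, and in Itgb1 it was the lowest, at 0.945 times. In 7 of the 10 it was the highest of its group, by small margins in some, as 24.1 beside 23.3 CPM in Itga2. For any gene 1 of the 3 TNF-α libraries must be the highest, and the share over all genes was not computed. TNF-α replicate 1 also had the highest count of 6 of the 9 macrophage and leukocyte genes in the table. Csf1r had 40 estimated counts there beside 1 and 7 in TNF-α replicates 2 and 3, Tyrobp 11 beside 0 and 0, and Ptprc 7 beside 0 and 0. These counts are low. Cd14, Cd68 and Itgb2 were not highest there. Cd14 had 1022 beside 1070 and 1089 in TNF-α replicates 2 and 3. Cd68 had 491 beside 502 in TNF-α+NFL replicate 3, and Itgb2 23.3 beside 31.1 in TNF-α+NFL replicate 2. The part of these genes in the values of TNF-α replicate 1 was not tested. Without it, 3 subunits passed (Itgb1, Itga11 and Itga1), and without any other single library none did. The number of genes called over the whole table moved with the same library, from 81 with all 6 libraries to 930 without it, and to between 5 and 41 without any other library. Those 930 were 460 higher and 470 lower genes, 3.43% and 3.51% of the 13409 tested in that fit.

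**Figure D4:**
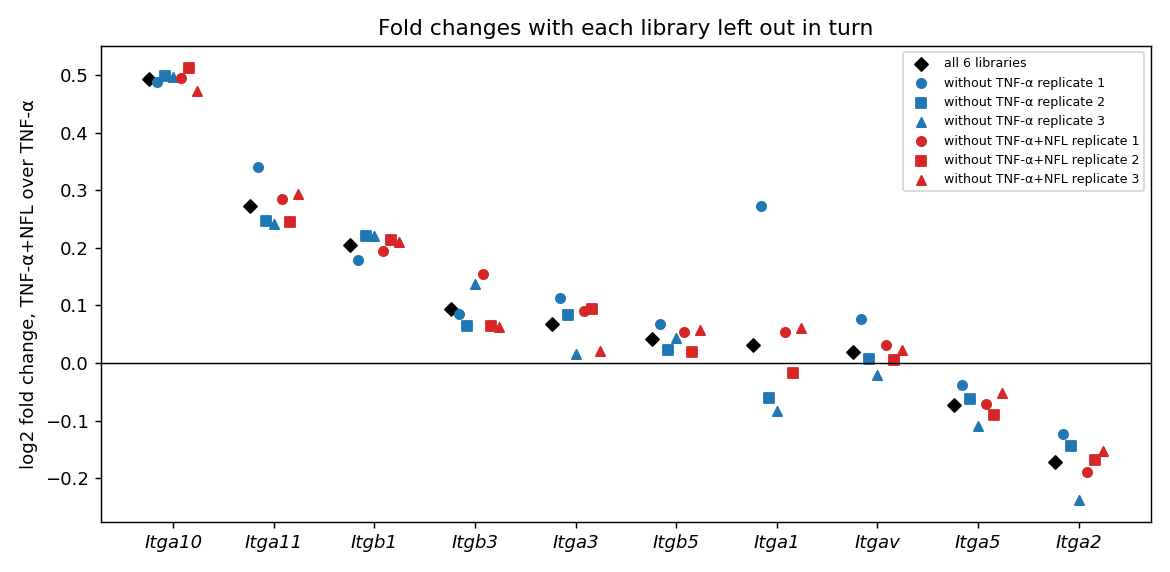
Log2 fold change of each integrin subunit with all 6 libraries (black diamonds) and with each library left out in turn (blue for a TNF-α library, red for a TNF-α+NFL library; circle, square and triangle for replicates 1, 2 and 3). Itgb1 and Itga11 stay above 0 in all fits, and Itga1 moves from -0.084 to 0.27.

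Because alpha subunits pair with beta subunits, each subunit was also set against Itgb1 within its own library, which removes the scaling of the libraries. Values per library are given as FPKM per 100 FPKM of Itgb1. The log2 differences, calls of overlap and permutation p come from the ratio of estimated counts. Since Itgb1 itself was higher in all 3 TNF-α+NFL libraries, most genes were lower in this ratio: over the 13249 other genes tested, 59.7% were lower with no overlap and 0.491% higher with no overlap. Of the 9 pairs, 4 were lower with no overlap (Itga2, Itga5, Itgav and Itgb5), 1 was higher with no overlap (Itga10), and 4 overlapped (Itga1, Itga3, Itga11 and Itgb3). Itga5 per Itgb1 was 12.0, 10.9 and 10.2 in the TNF-α libraries and 8.98, 9.44 and 8.90 in the TNF-α+NFL libraries, a log2 difference of -0.28. Itgav per Itgb1 was 17.2, 14.8 and 14.2 against 13.1, 13.9 and 13.5, a log2 difference of -0.18, or -0.10 without TNF-α replicate 1. The rise of the denominator, 0.20, was larger than the log2 fold changes of Itga5 and Itgav themselves, -0.072 and 0.018. Itga11 per Itgb1 was 6.44, 5.37 and 5.38 against 5.80, 6.32 and 5.84, a log2 difference of 0.070 (exact permutation p = 0.6, two-sided). TNF-α replicate 1 was the highest of the 6 and the other TNF-α libraries the lowest. With 1 library left out in turn the difference lay between 0.023, when TNF-α replicate 3 was left out, and 0.16, when replicate 1 of that group was. Each of the 5 pairs with no overlap had an exact permutation p of 0.10, the smallest possible, and 0.18 after Benjamini-Hochberg adjustment over the 9 pairs. With 3 libraries against 3, no pair could have reached 0.05.

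**Figure D5:**
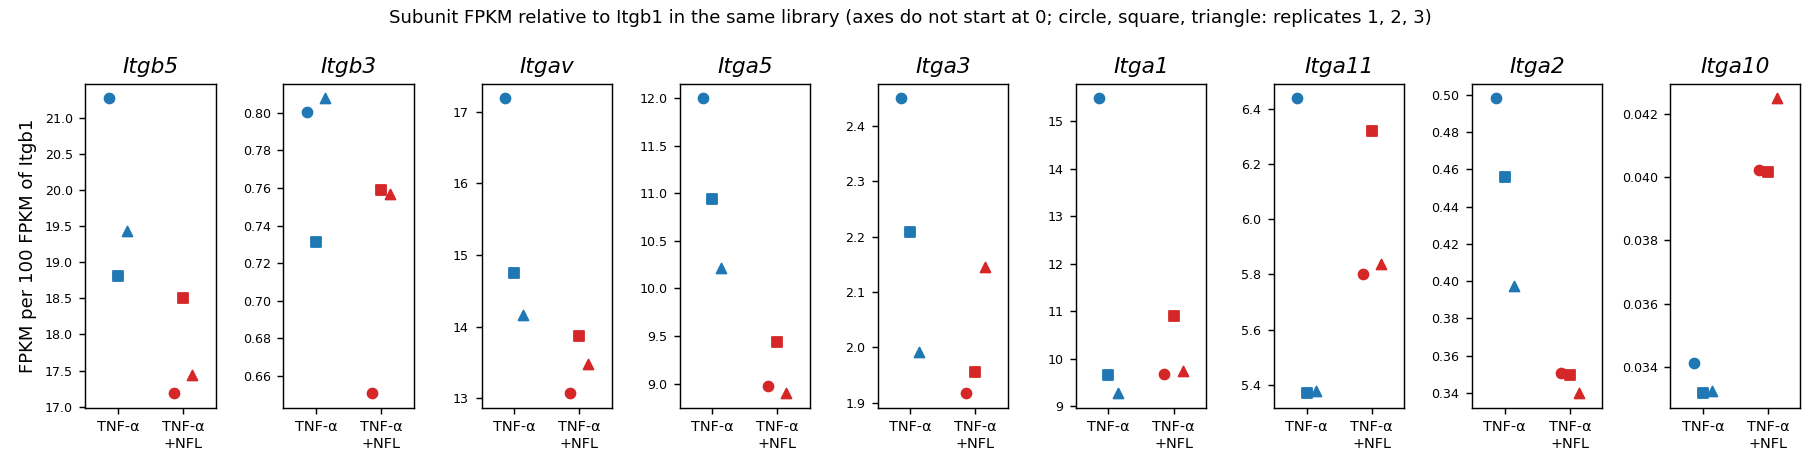
FPKM of each subunit per 100 FPKM of Itgb1 in the same library, with circles, squares and triangles for replicates 1, 2 and 3, TNF-α in blue, TNF-α+NFL in red, and axes that do not start at 0. The TNF-α+NFL libraries lie below the TNF-α libraries for Itgb5, Itgav, Itga5 and Itga2, above them for Itga10, and overlap with them for the other 4.

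The genes whose log2 CPM was most alike to the subunits that rose, over the 6 libraries and among 9095 genes with a mean of at least 10 CPM, are given as a description. For Itga11 they included Dhrs7b and Scube3, a secreted glycoprotein, with Pearson correlations of 0.996 and 0.991. For Itgb1 they were Canx, the chaperone calnexin, Dync1li2, a dynein chain, and Fhl1, a LIM domain protein, with 0.994, 0.991 and 0.990. The 6 points share the libraries and the difference between the groups, and the genes were picked for the highest values.

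A list of other integrin genes held 17 in the table, among them Itgbl1, an integrin beta-like gene that is not a receptor subunit. Of the 17, 10 passed the filter and none was called by edgeR at an adjusted p under 0.05. The log2 fold change was positive in 9 and negative in 1, with a median of 0.13. An unadjusted p under 0.05 was found for 4 of the 10 (11.1% of all genes), all higher with no overlap between the groups (8.66% of all genes): Itga4, Itga6, Itga7 and Itga8, named after their values were seen. Itga8, a receptor for nephronectin and other Arg-Gly-Asp ligands, had 64.2, 63.5 and 57.9 CPM in the TNF-α group and 79.3, 77.5 and 68.7 CPM in the TNF-α+NFL libraries (log2 fold change 0.28, adjusted p = 0.060 from edgeR). Itga6, a laminin receptor, came to 0.17 (adjusted p = 0.136 from edgeR). The highest level in this list was that of the beta-like gene Itgbl1, at 140 ± 7.35 and 147 ± 2.33 FPKM (SD, n = 3). Of the leukocyte and platelet subunits, Itgae had 1.14 FPKM, Itgb2 0.363 FPKM, Itga2b 0.0967 FPKM, Itgam 0.0333 FPKM and Itgal 0.00333 FPKM in the TNF-α group. Without TNF-α replicate 1, 5 of this list were called higher (3.43% of all genes in that fit), and without any other single library 0.

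Among activators and adaptors of adhesion, 2 of 36 genes tested rose and none fell, beside 0.408% of all genes called higher and 0.204% lower. Vcl, vinculin, which joins talin to actin, had 712, 691 and 674 CPM in the TNF-α group and 789, 799.9 and 804 CPM in the TNF-α+NFL libraries, a log2 fold change of 0.20 ± 0.036 (SE; edgeR, adjusted p = 0.024). Pdlim5, a scaffold protein on actin fibres, had 386, 387 and 376 CPM against 435, 454 and 449.8 CPM, a log2 fold change of 0.22 ± 0.037 (SE; edgeR, adjusted p = 0.018). In both the groups lay apart. In the list, 25 log2 fold changes were positive and 11 negative, with a median of 0.056, and an unadjusted p under 0.05 was found for 12 in the higher and 2 in the lower direction, beside 11.1% of all genes in either direction. Flna, filamin, had the highest level, at 409 ± 16.0 and 453 ± 9.16 FPKM (SD, n = 3), and did not pass (log2 fold change 0.15, adjusted p = 0.172 from edgeR). Without TNF-α replicate 1, 10 genes were called higher and 1 lower, beside 3.43% and 3.51% of all genes in that fit, and without any other single library 0.

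Of the ligands, none of the 16 collagen genes was called by edgeR. Their log2 fold changes were positive in 14 and negative in 2, with a median of 0.082. An unadjusted p under 0.05 was found for 6, all higher, beside 11.1% of all genes in either direction. Col1a1, the highest, was at 624 ± 59.4 and 655 ± 16.9 FPKM (SD, n = 3; log2 fold change 0.065, adjusted p = 0.797 from edgeR). Of the 27 other matrix and cell surface ligands tested, Tnc, tenascin-C, rose and none fell. Over all genes, 0.408% were called higher and 0.204% lower. Tnc was the only ligand called. It had 1865, 1773 and 1693 CPM in the TNF-α group and 2325, 2333 and 2382 CPM in the TNF-α+NFL group, with the groups far apart and a log2 fold change of 0.40 ± 0.041 (SE; edgeR, adjusted p = 0.000906). In this list 19 log2 fold changes were positive and 8 negative, with a median of 0.041. At an unadjusted p under 0.05, 7 genes were higher and 2 lower, beside 11.1% of all genes in either direction. Fn1, fibronectin, the ligand of Itga5, had the highest level, at 4804 ± 728 and 4433 ± 94.2 FPKM (SD, n = 3; log2 fold change -0.12, adjusted p = 0.797 from edgeR), with TNF-α replicate 1 at 5639 FPKM. Vtn, vitronectin, had no count in any library. Without TNF-α replicate 1, 7 collagens and 11 other ligands were called higher and 2 other ligands lower, in the fit that called 3.43% of all genes higher and 3.51% lower, and without any other single library 0 collagens and 1 other ligand, higher.

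Markers of other cell types were read beside these results, since NFL is made from cells of fat, which include pericytes. By the study's account the lysate was spun to clear it of fragments and holds no living cells. Of 8 smooth muscle and pericyte genes, 7 were tested and 2 rose, beside 0.408% of all genes called higher. These 2 were Acta2, smooth muscle actin (log2 fold change 0.28, adjusted p = 0.010 from edgeR), and Myh11, a smooth muscle myosin (0.29, adjusted p = 0.041 from edgeR). In all, 4 of the 7 were higher with no overlap, beside 8.66% of all genes, the other 2 being Cnn1, the muscle protein calponin (0.48, adjusted p = 0.069 from edgeR), and Tagln, transgelin (0.27, adjusted p = 0.123 from edgeR). Cspg4 was lower with no overlap, which held for 8.17% of all genes (-0.24, adjusted p = 0.217 from edgeR), Des came to -0.13 and Pdgfrb to 0.056, and Rgs5 had at most 2 counts in a library. Acta2 was at 1508 ± 92.0 and 1837 ± 46.2 FPKM (SD, n = 3). The summed level of the list was 2720 to 3090 FPKM in the TNF-α libraries and 3460 to 3590 FPKM in the TNF-α+NFL libraries. The summed chondrocyte list also lay higher, at 250 to 265 FPKM against 289 to 300 FPKM, led by Col11a1 at 215 and 251 FPKM. Of the 11 genes of that list tested, 0 were called by edgeR. An unadjusted p under 0.05 was found for 2 of them, beside 11.1% of all genes in either direction. The summed macrophage and leukocyte list lay lower, at 55.5 to 59.2 FPKM against 49.7 to 51.5 FPKM, with most of it from Cd14, at 34.7 and 30.9 FPKM. Fibroblast-type, adipocyte, endothelial and blood lists overlapped between the groups, with Kdr, an endothelial receptor, at 0 in every library. Esam led the endothelial list at 0.403 and 0.557 FPKM, Hba-a1, a globin, the blood list in the TNF-α group at 0.130 FPKM, and Fabp4 the adipocyte list at 15.6 and 17.0 FPKM. The part of any of these in the rise of Itgb1 and Itga11 was not tested.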

How the data were processed

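RNA-seq of the 6 libraries (poly-A RNA, single-end reads on a BGIseq platform per the labels) was taken as deposited. The submitters' processing notes name HISAT2 2.0.4, Bowtie2 2.2.5, RSEM 1.2.12 and the build Rnor 6.0. The authors deposited unnormalized estimated counts for every gene, partly fractional. FPKM values were deposited as well, scaled to transcript length and mapped reads, and so were TPM values, scaled to length and to 1 sum per library, which were not used beyond a look at their sums. No strand setting is given in the sources used here.

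After rounding, edgeR 4.0.16 (R 4.3.3) was run on the counts with filterByExpr, TMM scaling and a robust quasi-likelihood test, two-sided, and p-values were adjusted by Benjamini-Hochberg across 13250 genes. The biological coefficient of variation was 6.39%. The depth, 19344893 to 19725135 estimated counts per library, limits low genes such as Itga10. Standard errors follow from each fold change and F value. Values per library are TMM-normalized CPM, and FPKM served for levels, their sums and the ratios printed per library. The log2 differences and tests of the ratios to Itgb1 used estimated counts. Fold changes and intervals are from the fit.

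Named genes are the 10 subunits, list genes past an adjusted p of 0.05, the gene of highest FPKM in each list, and the 3 genes most alike to each subunit called, of which 1 is not reported here. Other list genes, among them Itga4, Itga6, Itga7, Itga8 and single marker genes, fall outside this rule and were named after their values were seen. The members, lists and tests were chosen with earlier results of these data known, and the lists were written from general knowledge. Alternatives were DESeq2 size factors, the DESeq2 1.42.0 Wald test, limma-voom (limma 3.58.1), limma on log2(FPKM + 1), other filters and thresholds, the replicate number as a block, and leaving out each library. A limma-voom fit without the robust option and the list counts without each library were chosen after seeing the data. The test was checked on simulated counts. Promoter sequences came from RefSeq, build GRCr8, which is not the build of the counts, and were matched by gene ID and symbol together.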

Additional observations from a re-analysis of the deposited data

How the results depend on the processing

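The number of subunits past the threshold was 2 with DESeq2 size factors, both other filters, the DESeq2 Wald test, limma-voom and an adjusted p of 0.10. It was 0 with limma-voom without the robust option (chosen after seeing the data), with limma on log2(FPKM + 1), with the replicate number as a block and at an adjusted p of 0.01. With 1 library left out it ranged from 0 to 3. The number of all genes was 81 (54 higher, 27 lower). It was 132 without a filter (84 and 48), 148 by the DESeq2 Wald test (95 and 53), 35 by limma-voom without the robust option (26 and 9), 6 with limma on FPKM (3 and 3), 34 with the replicate block (25 and 9), 164 at an adjusted p of 0.10 and 23 at 0.01. With 1 library left out it ranged from 5, without TNF-α+NFL replicate 1, to 930, without TNF-α replicate 1. The cause of these differences was not tested.

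Itgb1 had an adjusted p of 0.0997 and Itga11 of 0.0627 with the replicate block (edgeR). It is not stated whether the replicate numbers pair the samples. Same-numbered libraries had correlations of -0.0372, -0.0231 and 0.0718 between their deviations from the group means. With so few libraries, these values cannot decide it. Over all alternatives the adjusted p of Itgb1 ran from 6.1e-05 (DESeq2 Wald test) to 0.265, and that of Itga11 from 1.04e-05 (edgeR without TNF-α replicate 1) to 0.276. Of the 10 subunits, 8 kept their direction in all 15 fits. The exceptions were Itga1, from -0.084 to 0.27 with 1 library left out (TNF-α replicate 2 gave -0.061 when left out, TNF-α replicate 3 -0.084 and TNF-α+NFL replicate 2 -0.017), and Itgav, from -0.021 (without TNF-α replicate 3) to 0.077. The median of the 10 stayed between 0.030 and 0.099. DESeq2 gave no adjusted p for Itga2, Itga10 and Itgb3.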

Other observations

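The TNF-α libraries were more spread than the TNF-α+NFL libraries in 8 of the 10 subunits, and so were 62.6% of all tested genes. Pearson correlations of log2 CPM over all tested genes were 0.992 to 0.994 between TNF-α libraries, 0.996 between TNF-α+NFL libraries and 0.993 to 0.995 across the groups, which describes these libraries and not independent genes. Of the 81 genes called with all libraries, 78 were also called without TNF-α replicate 1.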
